A study of Mus musculus with 11 samples.

Results

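Expression of 10 genes that encode the enzymes of bile acid synthesis and conjugation was examined in mouse liver. The genes were Cyp7a1, Cyp8b1, Cyp7b1, Cyp27a1, Cyp39a1, Hsd3b7, Akr1d1, Amacr, Slc27a5 and Baat, taken by symbol from a table of 31280 genes, and all 10 were found once. The limonin group comprised 6 libraries of liver RNA from wild-type C57BL/6 mice fed an MCD diet, which lacks methionine and choline, for 8 weeks and given limonin, a triterpenoid of citrus fruit, intragastrically at 100 mg/kg for 4 weeks. The MCD group comprised 5 libraries from wild-type C57BL/6 mice on the same diet for 8 weeks that received water intragastrically. All mice thus shared the diet, a model of steatohepatitis, and no group on normal chow is part of the comparison. The labels used here state neither age nor sex. They number the libraries of a group as replicates without saying that each is a separate mouse, and the p-values refer to the spread between these libraries, which may be technical. In what follows, limonin livers and MCD livers mean the libraries of that group, and n counts libraries.

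Hepatocytes turn cholesterol into bile acids along 2 routes. In the classic route Cyp7a1, the rate-limiting enzyme, hydroxylates cholesterol itself, and Cyp8b1 directs the product towards cholic acid. In the alternative route Cyp27a1 first oxidizes the side chain of cholesterol and Cyp7b1 then hydroxylates the oxysterol, while Cyp39a1 acts on an oxysterol made in the brain. The routes share the ring enzymes Hsd3b7 and Akr1d1, the peroxisomal racemase Amacr, the bile acid-CoA ligase Slc27a5 and the acyltransferase Baat, which in mice joins bile acids mainly to taurine, a product of sulfur amino acid metabolism. Bile acids returning to the liver act on the receptor encoded by Nr1h4 (FXR), which represses Cyp7a1 and Cyp8b1 partly through Nr0b2 (SHP).

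RefSeq promoter windows (GRCm38.p6) were available for 4 of the 10 genes, and 2 are shown, the 2 with a match to the motifs below. Cyp8b1 varied widely within both groups and Akr1d1 was higher with limonin. Each window is the 250 bases before the annotated start, at chr9:121916306-121916555 on the minus strand for Cyp8b1 and chr6:37529923-37530172 on the plus strand for Akr1d1, read along the strand of the gene. Capitals mark 3 motifs, the HNF4 motif CAAAGTCCA and the nuclear receptor half-site AGGTCA on either strand (TGACCT on the other), and the TATA box TATAAA on the gene strand.
Cyp8b1: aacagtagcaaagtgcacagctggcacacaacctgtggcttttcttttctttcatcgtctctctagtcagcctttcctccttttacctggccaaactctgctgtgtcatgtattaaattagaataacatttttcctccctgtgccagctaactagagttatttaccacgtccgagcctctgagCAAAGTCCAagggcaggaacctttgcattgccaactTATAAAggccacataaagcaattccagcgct
Akr1d1: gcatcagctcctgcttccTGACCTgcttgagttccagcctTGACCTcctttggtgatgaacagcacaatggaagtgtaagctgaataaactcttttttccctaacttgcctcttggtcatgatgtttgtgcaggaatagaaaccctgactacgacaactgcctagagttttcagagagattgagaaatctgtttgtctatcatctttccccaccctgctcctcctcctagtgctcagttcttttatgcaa
The Cyp8b1 window held the HNF4 motif 67 to 59 bases before the start and the TATA box 31 to 26 bases before it. These motifs were found in 0.384% and 7.59% of 32851 windows of the same length in all genes. The Akr1d1 window held the half-site at 232 to 227 and 210 to 205 bases before the start, both on the other strand, and 4607 of the 32851 windows held that half-site. None of the marked matches overlapped. Each of the 3 motifs matched 1 of the 4 enzyme windows, and the windows of Cyp27a1 and Hsd3b7, which are not printed, held none of them. The motifs were chosen with the sequences in view, and a match is a description of letters, not of binding.

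In the mouse annotation (GENCODE M21, GRCm38) the classic route genes lie at chr4:6265612-6275633 (Cyp7a1, minus strand) and chr9:121914356-121916305 (Cyp8b1, minus). Those of the alternative route lie at chr3:18071950-18243338 (Cyp7b1, minus), chr1:74713574-74737892 (Cyp27a1, plus) and chr17:43667425-43751431 (Cyp39a1, plus). The ring enzymes lie at chr7:127800604-127803802 (Hsd3b7, plus) and chr6:37530173-37568815 (Akr1d1, plus), with a processed pseudogene inside the span of Akr1d1. The later enzymes lie at chr15:10981756-10996626 (Amacr, plus), chr7:12988346-12998192 (Slc27a5, minus) and chr4:49489422-49506557 (Baat, minus). Apart from Cyp7a1 and Baat on chromosome 4 and Hsd3b7 and Slc27a5 on chromosome 7, each gene is on a chromosome of its own.

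Expression was given as FPKM, fragments scaled to transcript length and library depth, which allows levels of different genes to be compared per length. Low values in genes with 1 transcript implied 15530000 to 19610000 fragments per library. All 10 enzyme genes were above 3 FPKM in every library, so none entered the test through 1 group alone. Groups were compared on log2(FPKM + 1) with limma over 10489 genes, and a gene was called at a Benjamini-Hochberg adjusted p under 0.05. The fold changes below are on this scale, limonin minus MCD, with their standard error (SE). The tissue was checked by its markers. Alb, which encodes albumin, averaged 25890 ± 4615 FPKM in limonin livers and 17790 ± 2674 FPKM in MCD livers (SD, n = 6 and n = 5). All 15 hepatocyte markers were tested, and 7 were called higher and none lower, but their fold changes did not all have the same sign. Apoa1 averaged 3366 ± 1177 FPKM in limonin livers and 5066 ± 968.9 FPKM in MCD livers. Its fold change was -0.65 and it was not called (limma adjusted p = 0.055).

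Cyp7b1, Slc27a5, Akr1d1, Cyp39a1 and Amacr rose with limonin, and none of the 10 genes fell. The other 5 genes, Cyp7a1, Cyp8b1, Cyp27a1, Hsd3b7 and Baat, were not called, although the fold change of each was above 0. Among all genes tested, 7.24% were called higher and 18.7% lower, and 41.1% had a fold change above 0. The median fold change was 0.445 for the 10 genes and -0.07 for all genes tested. Cyp7b1 and Slc27a5 kept their calls in each of 25 alternative analyses, whereas the other 3 calls depended on single libraries. Genes called higher numbered 2 when MCD 1, MCD 2, MCD 5, limonin 2 or limonin 4 was left out, and those 2 were Cyp7b1 and Slc27a5 each time. They numbered 4 without MCD 3, MCD 4, limonin 1 or limonin 6.

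**Figure D1:**
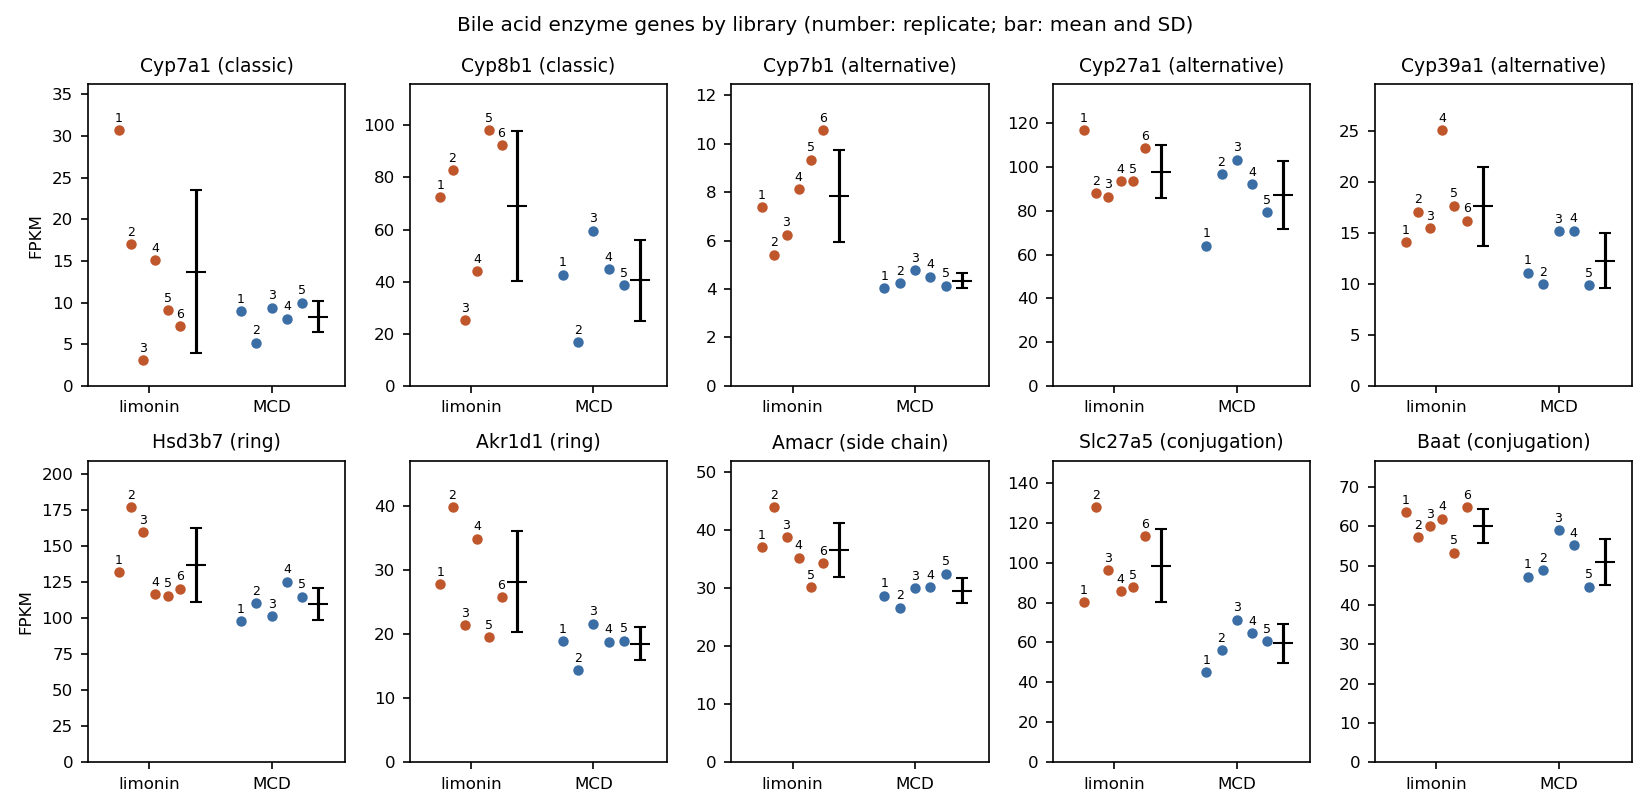
FPKM of each enzyme gene (vertical axis, from 0, a scale of its own in each panel) in 6 limonin and 5 MCD libraries, with replicate numbers beside the points and the group mean and SD as a bar. Limonin and MCD values do not overlap for Cyp7b1 and Slc27a5, and Cyp7a1 runs from 3.10 to 30.7 FPKM in the limonin livers.

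The classic route was examined first. Cyp7a1 was at 30.7, 17.0, 3.10, 15.1, 9.10 and 7.19 FPKM in limonin livers 1 to 6, and at 8.96, 5.19, 9.39, 8.07 and 9.99 FPKM in MCD livers 1 to 5. Limonin 1, 2 and 4 lay above every MCD library, limonin 3 lay below all of them, and all 5 MCD values fell inside the limonin range. The mean was 13.7 ± 9.76 FPKM in limonin livers and 8.32 ± 1.89 FPKM in MCD livers (SD, n = 6 and n = 5). The fold change was 0.40 ± 0.45 (SE; limma adjusted p = 0.535), and its 95% interval ran from -0.59 to 1.39. The highest library exceeded the lowest 9.89-fold in the limonin group and 1.93-fold in the MCD group, the widest and the second widest spread of the 10 genes in these groups. Leaving out limonin 1 gave a fold change of 0.13 and leaving out limonin 3 gave 0.71, and the gene was not called in either case (adjusted p = 0.830 and 0.121).

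Cyp8b1 was at 72.5, 82.7, 25.1, 44.1, 98.0 and 92.4 FPKM in limonin livers 1 to 6 and at 42.7, 16.7, 59.5, 44.9 and 38.7 FPKM in MCD livers 1 to 5. Limonin 1, 2, 5 and 6 lay above every MCD library, while limonin 3 and 4 lay among the MCD values. The fold change was 0.72 ± 0.40 (adjusted p = 0.200), with a 95% interval of -0.15 to 1.597. Without limonin 3 the gene was called, at a fold change of 0.98 (adjusted p = 0.0392). Limonin 3 was the lowest library of its group for both genes of the classic route, and MCD 2 was the lowest of the MCD group for both.

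In the alternative route Cyp7b1, the oxysterol hydroxylase, was at 7.38, 5.41, 6.25, 8.13, 9.33 and 10.5 FPKM in limonin livers 1 to 6 and at 4.03, 4.23, 4.78, 4.51 and 4.14 FPKM in MCD livers 1 to 5. Every limonin library lay above every MCD library, a pattern shared by 2.97% of all genes tested and, among the 10 genes, by Slc27a5. Of the hepatocyte markers, Apoh, Trf, Ambp, F2 and Cps1 also showed this pattern and the others did not. The opposite pattern, every limonin library below every MCD library, was found in 8.33% of all genes tested and in none of the 10. The mean was 7.84 ± 1.91 FPKM in limonin livers and 4.33 ± 0.304 FPKM in MCD livers (SD, n = 6 and n = 5), a 1.81-fold ratio of means. Cyp7b1 rose by 0.70 ± 0.14 (limma adjusted p = 0.004), and over the alternatives fitted here the fold change was 0.49 to 0.82 with a largest adjusted p of 0.023. The gene has 1 annotated transcript, and its values imply 224 to 408 fragments per limonin library and 161 to 186 per MCD library.

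Cyp27a1, which opens the alternative route, ranged from 86.6 to 117 FPKM with a median of 93.6 in limonin livers and was at 64.1, 96.7, 103, 92.2 and 79.6 FPKM in MCD livers 1 to 5. The groups overlapped, with 3 MCD libraries inside the limonin range. Its fold change was 0.18 ± 0.13 (adjusted p = 0.332), with a 95% interval of -0.10 to 0.45. Macrophages also express Cyp27a1, and summed FPKM of the macrophage markers was 161 to 267 in limonin livers and 244 to 864 in MCD livers. The part of these cells in the Cyp27a1 level was not tested. Cyp39a1 ranged from 14.2 to 25.1 FPKM with a median of 16.7 in limonin livers and was at 11.1, 10.02, 15.2, 15.2 and 9.88 FPKM in MCD livers. All but 1 limonin library lay above every MCD library, and limonin 4 was the highest. Cyp39a1 rose by 0.49 ± 0.15 (adjusted p = 0.0313). That call was lost when any of MCD 1, 2, 5 and limonin 2, 4 was left out, with adjusted p up to 0.0918.

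Of the ring enzymes, Akr1d1 was called and Hsd3b7 was not. Akr1d1, the reductase that gives the sterol ring its bent shape, ranged from 19.5 to 39.8 FPKM with a median of 26.7 in limonin livers and was at 18.8, 14.4, 21.6, 18.8 and 19.0 FPKM in MCD livers. The groups overlapped, with limonin 3 and limonin 5 below MCD 3. Akr1d1 rose by 0.55 ± 0.17 (adjusted p = 0.0295), and leaving out any of the same 5 libraries ended the call, with adjusted p up to 0.0883. Hsd3b7, the dehydrogenase before it, was the most abundant of the 10 genes per length in both groups, at 116 to 177 FPKM with a median of 126 in limonin livers and at 97.9, 111, 102, 125 and 115 FPKM in MCD livers. Hsd3b7 was not called, at a fold change of 0.30 ± 0.13 (adjusted p = 0.0927). The gene was called after median-ratio scaling (adjusted p = 0.0354), at equal summed FPKM (0.0470) and without limonin 5 and 6 (0.0494). A predicted protein-coding gene overlaps Hsd3b7 on the same strand and another annotated transcript lies on the other strand, so part of its value may come from them and its level is uncertain.

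At the end of the pathway Slc27a5 and Amacr rose and Baat was not called. Slc27a5, which activates bile acids for conjugation, was at 80.2, 128, 96.3, 85.8, 87.6 and 113 FPKM in limonin livers 1 to 6 and at 45.05, 56.2, 71.4, 64.7 and 60.5 FPKM in MCD livers 1 to 5. No limonin value overlapped an MCD value, and the ratio of the means was 1.65-fold. Slc27a5 rose by 0.71 ± 0.14 (adjusted p = 0.00428), and over the alternatives fitted here the fold change was 0.46 to 0.83 with a largest adjusted p of 0.0234. Amacr, the racemase of the bile acid side chain, ranged from 30.1 to 44.0 FPKM with a median of 36.1 in limonin livers and was at 28.7, 26.7, 30.0, 30.2 and 32.5 FPKM in MCD livers. Of the limonin libraries, limonin 5 alone lay inside the MCD range. Amacr rose by 0.29 ± 0.10 (adjusted p = 0.0463), but only the fit without limonin 5 kept that call among the 11 that left out 1 library (largest adjusted p 0.126, without MCD 2). Baat ranged from 53.4 to 64.9 FPKM with a median of 61.0 in limonin livers and was at 47.2, 48.9, 59.0, 55.1 and 44.7 FPKM in MCD livers. Limonin 2 and limonin 5 lay inside the MCD range, and the fold change was 0.24 ± 0.10 (adjusted p = 0.0787). Baat was called after median-ratio scaling, quantile normalization or scaling to equal summed FPKM (adjusted p 0.0333, 0.0454 and 0.0233) and without limonin 5 (0.0484).

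**Figure D2:**
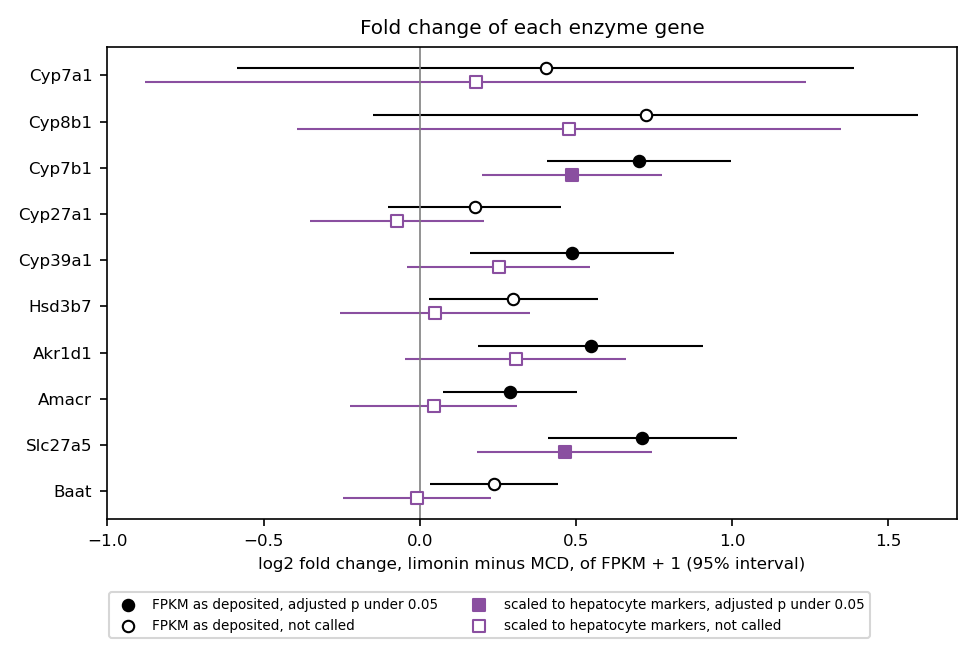
Log2 fold change of FPKM + 1, limonin minus MCD, with its 95% interval (horizontal axis) for each enzyme gene, in deposited FPKM (circles) and after scaling each library to its hepatocyte markers (squares); filled symbols have an adjusted p under 0.05. Cyp7b1 and Slc27a5 are filled in both, and the interval of Cyp7a1 runs from -0.59 to 1.39.

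Whether the alternative route differed from the classic one in its response was tested on 4 ratios within each library. The Cyp7b1 to Cyp7a1 ratio was 0.241, 0.318, 2.01, 0.537, 1.03 and 1.47 in limonin livers 1 to 6 and 0.450, 0.815, 0.509, 0.559 and 0.414 in MCD livers 1 to 5. The ratio exceeded 1 in limonin 3, 5 and 6 and in no MCD library, while in limonin 1 and 2 it was below every MCD library. The test used the log2 ratio of FPKM + 1. Its mean was -0.48 ± 1.11 in limonin livers and -0.78 ± 0.33 in MCD livers (SD, n = 6 and n = 5), a difference of 0.30 with an interval of -0.92 to 1.54 from the exact permutation test over 462 splits (two-sided p = 0.569, adjusted over the 4 ratios 0.845). The difference in the log2 ratio of Cyp27a1 to Cyp7a1 was -0.23 (exact permutation p = 0.634, adjusted 0.845), and that of Cyp27a1 to Cyp8b1 was -0.55 (p = 0.258, adjusted 0.845). That of Cyp7b1 to Cyp8b1 was -0.02 (exact permutation p = 0.959, adjusted 0.959). The Cyp27a1 to Cyp8b1 ratio was 0.955 to 3.45 in limonin livers and 1.5 to 5.78 in MCD livers, and the Cyp7b1 to Cyp8b1 ratio was 0.0654 to 0.249 in limonin livers and 0.0803 to 0.253 in MCD livers. In both ratios MCD 2 was the highest MCD library and limonin 3 the highest limonin library, the libraries in which Cyp8b1 was lowest. Cyp7b1 was called and the classic genes were not, but no difference between the routes was detectable in these ratios. Their intervals were wide, and the smallest p this design allows is 0.00216.

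**Figure D3:**
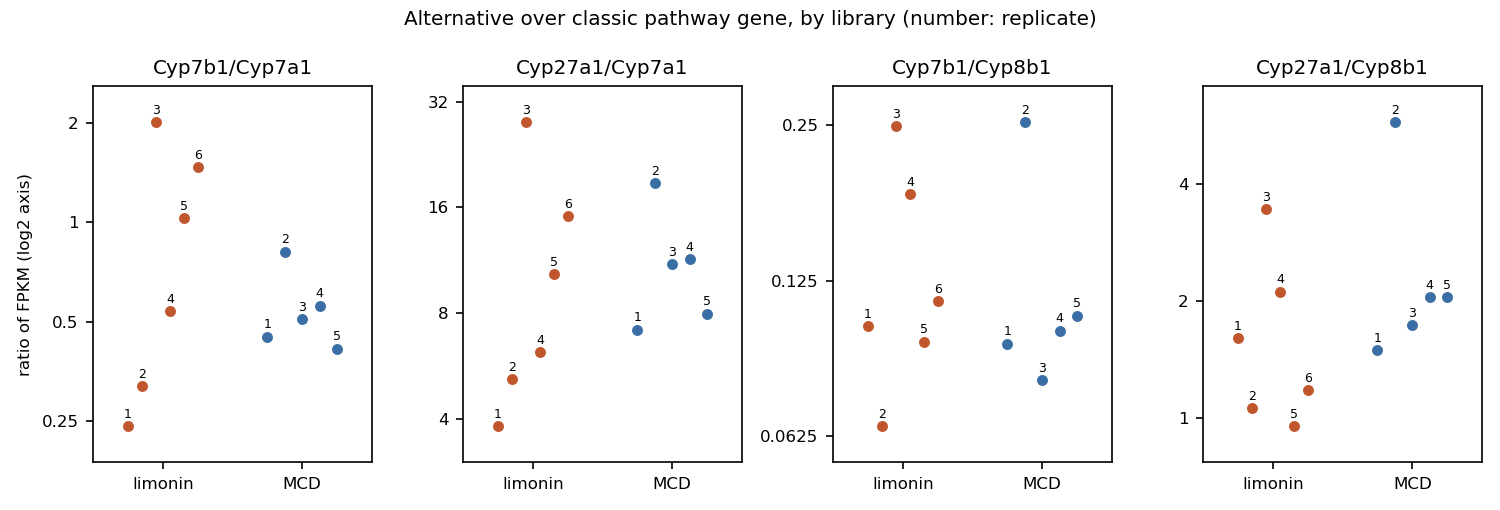
FPKM ratio of an alternative route gene to a classic route gene in each library (vertical axis, log2 scale), with replicate numbers beside the points. The Cyp7b1 to Cyp7a1 ratio runs from 0.241 to 2.01 in limonin livers and from 0.414 to 0.815 in MCD livers.

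The order of the levels was similar in the 2 groups. In limonin livers the mean FPKM followed the order Hsd3b7 (137), Slc27a5 (98.5), Cyp27a1 (97.9), Cyp8b1 (69.1), Baat (60.2), Amacr (36.6), Akr1d1 (28.2), Cyp39a1 (17.6), Cyp7a1 (13.7) and Cyp7b1 (7.84). In MCD livers the means were 110 for Hsd3b7, 87.2 for Cyp27a1, 59.6 for Slc27a5, 51.0 for Baat, 40.5 for Cyp8b1, 29.6 for Amacr, 18.5 for Akr1d1, 12.3 for Cyp39a1, 8.32 for Cyp7a1 and 4.33 for Cyp7b1. Neighbours in this order overlapped between libraries except Baat and Amacr in limonin livers, and Amacr and Akr1d1 as well as Cyp7a1 and Cyp7b1 in MCD livers. Cyp7a1 and Cyp7b1, the hydroxylases that act at the same ring position in the classic and alternative routes, were the lowest transcripts per length in both groups.

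Within groups the genes did not follow 1 library order. Limonin 2 was the highest library of its group for Hsd3b7, Akr1d1, Amacr and Slc27a5 and the lowest for Cyp7b1. Limonin 5 was the lowest for Hsd3b7, Akr1d1, Amacr and Baat and the highest for Cyp8b1. Limonin 6 held the highest Cyp7b1 and Baat values, and limonin 1 the highest Cyp7a1 and Cyp27a1 values. In the MCD group MCD 3 was the highest for 6 of the 10 genes, and MCD 1 and MCD 2 were each the lowest for 4.

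**Figure D4:**
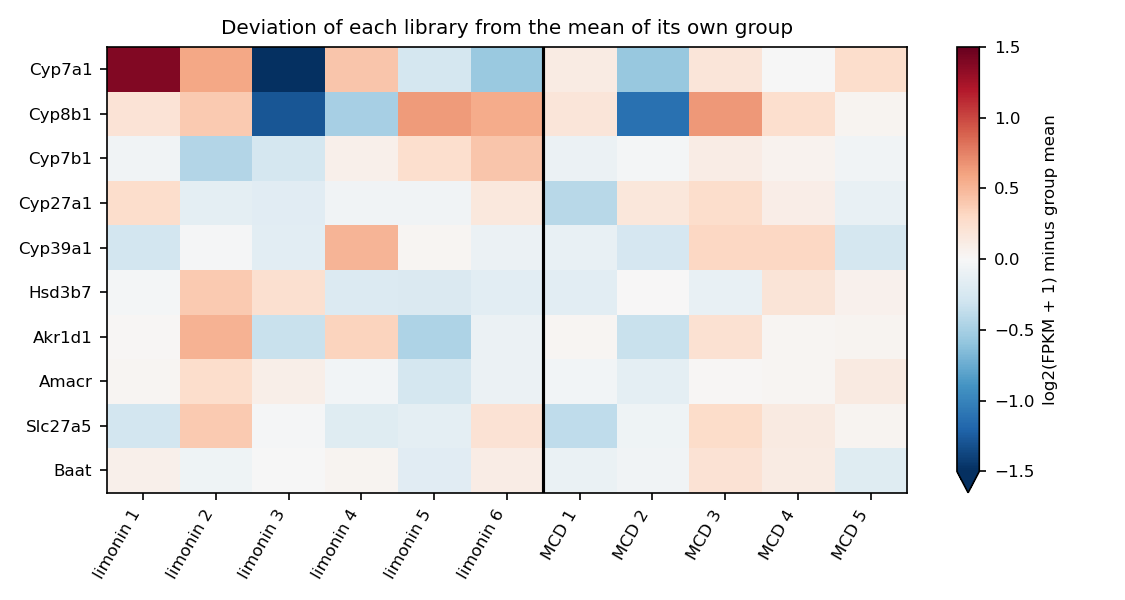
Deviation of log2(FPKM + 1) from the mean of the library's own group (colour) for each enzyme gene (rows) in 6 limonin and 5 MCD libraries (columns). The largest deviations are those of Cyp7a1 in limonin 1 and limonin 3, at 30.7 and 3.10 FPKM, and Hsd3b7 and Cyp7b1 deviate in opposite directions in limonin 2.

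Markers of liver cell types also differed between the groups. Of 15 hepatocyte markers that are not enzymes of bile acid synthesis, 7 rose, none fell and 8 were not called, with a median fold change of 0.419 beside 0.445 for the 10 enzymes. Summed FPKM of these markers was 48500 to 68700 in limonin livers and 46900 to 58300 in MCD livers. Without MCD 1 or MCD 2 the number called higher was 4, and without limonin 4 or limonin 5 there was 1 called lower. Of the other lists, 12 of 14 stellate cell and fibroblast markers fell, as did 6 of 11 tested macrophage markers, of 14 listed. Of 12 cholangiocyte markers 9 were tested, and those 9 fell, but Cldn4, Sox9 and Mmp7 reached 1 FPKM in all 5 MCD libraries and in only 1, 3 and 3 limonin libraries, so the filter favoured a fall for them. Summed FPKM of the cholangiocyte markers was 29.5 to 111 in limonin livers and 85.1 to 492 in MCD livers, and that of the stellate cell and fibroblast markers was 64.4 to 91.4 in limonin livers and 110 to 207 in MCD livers. Of 9 tested endothelial markers 2 fell and 1 rose, and none of 6 tested intestinal markers was called. Among all genes tested, 7.24% were called higher and 18.7% lower. Of 12 lymphocyte markers 3 were tested, and Cd79a and Cd79b of these passed the filter through the MCD group, so no count is read from that list. The part of these cell types in the enzyme results was not tested. In bulk liver RNA, more or fewer cells of a type cannot be told apart from more or less RNA per cell. When each library was scaled to its hepatocyte markers, the median over all tested genes moved to -0.27 and that of the 10 enzymes to 0.216. Cyp7b1 and Slc27a5 were then still called, with fold changes of 0.49 and 0.46 and adjusted p of 0.0103 and 0.0118. Akr1d1, Cyp39a1 and Amacr were not called (adjusted p = 0.156, 0.160 and 0.798), and the fold changes of Cyp27a1 and Baat turned to -0.07 and -0.01.

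Several other steps of the pathway also rose. Of 16 tested genes, of 18 listed, 5 rose, none fell and 11 were not called, with a median of 0.273, and 2 were called higher without MCD 2. The share called higher was 31.2%, beside 7.24% of all genes tested, of which 18.7% were lower. Among the hepatocyte markers it was 46.7%, with a median of 0.419. Cyp2c70, which makes the muricholic acids of rodents, averaged 77.9 ± 18.7 FPKM in limonin livers and 45.7 ± 9.52 FPKM in MCD livers, a rise of 0.75 ± 0.18 (adjusted p = 0.0101). Cyp2a12, which hydroxylates secondary bile acids in mice, rose by 0.59 ± 0.12 (adjusted p = 0.00446). Slc27a2, the ligase that activates newly made bile acid precursors, rose by 0.55 ± 0.15, and the peroxisomal importer Abcd3 rose by 0.48 ± 0.13, and both lost their calls without MCD 2 (adjusted p = 0.0510 and 0.0557). After hepatocyte marker scaling neither was called, at fold changes of 0.30 and 0.24 (adjusted p = 0.120 and 0.197). In all 4 genes every limonin library lay above every MCD library, a pattern found in 2.97% of all genes tested. Some hepatocyte markers, named above, also showed it. The 4 were named for the smallest p of their list, so this separation is no separate result. The deposited table assigned the KEGG term for primary bile acid biosynthesis to 16 genes, among them all 10 enzymes, and of the other 6 genes 4 were tested and 1, Acox2, rose (0.46 ± 0.14, adjusted p = 0.0269).

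Of 22 tested regulators, of 25 in the table, 4 rose, 2 fell and 16 were not called, with a median of -0.01. The 27.3% called is near the 25.9% of all genes tested, so the count is no result about the regulators as a group; without MCD 2 those called were 2 higher and 1 lower, and without MCD 1 the number lower was 1. Nr1h4, the bile acid receptor gene, averaged 42.8 ± 5.89 FPKM in limonin livers and 37.9 ± 1.94 FPKM in MCD livers, and Nr0b2, its target that represses Cyp7a1, averaged 21.5 ± 6.21 FPKM in limonin livers and 21.3 ± 4.60 FPKM in MCD livers. Neither was called (adjusted p = 0.247 for Nr1h4 and 0.973 for Nr0b2). Klb, the co-receptor through which the intestinal hormone of bile acid feedback acts, was at 2.57 to 6.48 FPKM in limonin livers and 1.23 to 1.99 FPKM in MCD livers and rose by 0.97 ± 0.16 (adjusted p = 0.00214). Fgfr4, the receptor that pairs with it, had a fold change of -0.19 ± 0.10 (adjusted p = 0.192). The clock repressor gene Nr1d1 rose by 0.64 ± 0.15 and the fatty acid receptor gene Ppara by 0.75 ± 0.21, and the call of Ppara was lost without MCD 2 (adjusted p = 0.0526) and after hepatocyte marker scaling (0.0637). The immediate early gene Egr1 fell by 0.75 ± 0.21 (adjusted p = 0.0199). That call was lost with no filter (0.0655), after median-ratio scaling (0.0513) and after quantile normalization (0.0519). The authors' deposited calls did not include Egr1 either (q = 0.107). Hnf4a, the hepatocyte factor whose motif was marked above and which is also 1 of the hepatocyte markers, rose by 0.45 ± 0.14 (adjusted p = 0.0344), and lost its call without limonin 2, 3 or 4 or MCD 1, 2, 3 or 5 (largest adjusted p 0.0732). Its fold change was 0.20 after hepatocyte marker scaling (adjusted p = 0.342), a scaling of which it is itself a part.

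Transport and detoxification of bile acids gave mixed results. Of 13 tested transporters, of 15 listed, 4 rose and 1 fell, with a median of 0.150. Called higher were 30.8% and lower 7.69%, beside 7.24% and 18.7% of all genes tested. Of the hepatocyte markers, 46.7% were called higher. The transporters called higher numbered 2 without MCD 2, MCD 3, MCD 5 or limonin 4, and those lower 2 without limonin 3. Slc10a1, which takes up bile acids from blood, averaged 48.4 ± 21.2 FPKM in limonin livers and 22.5 ± 8.07 FPKM in MCD livers, a rise of 1.06 ± 0.28 (adjusted p = 0.0192). The sterol exporter Abcg8 rose by 0.84 ± 0.16, the export subunit Slc51b fell by 0.75 ± 0.20, and the canalicular exporter Abcc2 rose by 0.38 ± 0.11, a call lost without limonin 4 or MCD 2, 3, 4 or 5 (largest adjusted p 0.0602) and after hepatocyte marker scaling, at 0.13 (adjusted p = 0.495). Of 11 tested genes of bile acid sulfation and hydroxylation, of 15 listed, 3 rose and 1 fell, and 1 was higher without MCD 2. Called higher were 27.3% and lower 9.09%, beside the same shares of all genes tested. These calls include Sult2a2 and Sult2a7, whose passage of the filter is described below. Cyp3a13 rose by 1.07 ± 0.27 and Ugt2b1 by 0.56 ± 0.15, and the call of Ugt2b1 was lost without MCD 2 (adjusted p = 0.0522) and after hepatocyte marker scaling, at 0.31 (adjusted p = 0.115). The sulfotransferase genes Sult2a2 and Sult2a7 had fold changes of -2.87 ± 0.49 and 0.72 ± 0.25. Sult2a2 reached 1 FPKM in 2 limonin and 5 MCD libraries and Sult2a7 in 4 limonin libraries and 1 MCD library, so each passed the filter mainly through the group where it was high and had to differ. The Sult2a genes are near-identical copies, so their separate values are uncertain, and Sult2a7 lost its call without limonin 3, 4, 5 or 6 or MCD 1, 2, 3 or 5 (largest adjusted p 0.115).

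**Figure D5:**
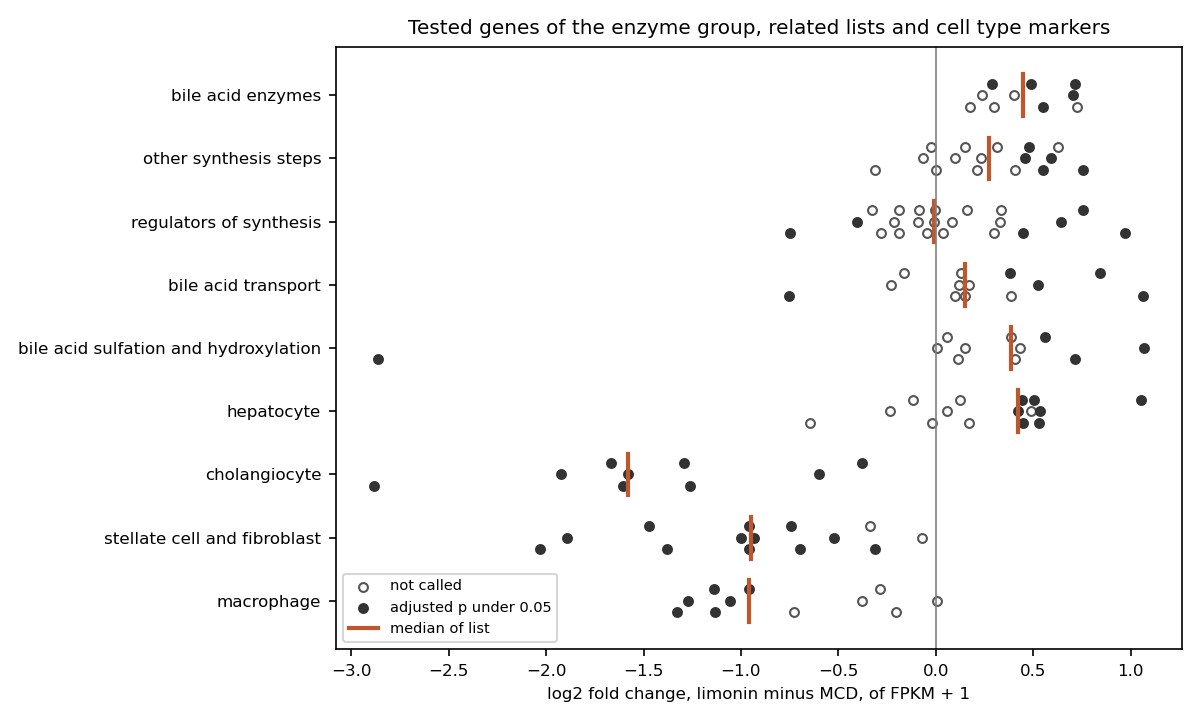
Log2 fold change of FPKM + 1, limonin minus MCD (horizontal axis), of each tested gene of the 10 enzymes, 4 related lists and 4 cell type marker lists; filled points have an adjusted p under 0.05 and a bar marks the list median. The medians of the enzymes and of the hepatocyte markers, 0.445 and 0.419, are given by the bars.

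The genes with the most similar profile over the 11 libraries were listed for the 2 ring hydroxylases. For Cyp7a1 these included the pseudogene Cyp2d38-ps, Nr1h4 and Tstd3, with a Pearson r of 0.893, 0.856 and 0.851 of log2(FPKM + 1). None of these 3 was called (adjusted p 0.307, 0.247 and 0.762). For Cyp7b1 they were Dbil5, the fatty acid hydroxylase gene Cyp4a10, Cyp2a5 and the pseudogene Atp5pb-ps, with an r of 0.933, 0.907, 0.897 and 0.896, and all 4 were called higher, with fold changes of 1.17, 0.72, 0.54 and 0.47. The call of Cyp2a5 was lost without limonin 4, 5 or 6 or MCD 1, 2, 4 or 5 (largest adjusted p 0.0973), and after hepatocyte marker scaling neither Cyp2a5 nor Atp5pb-ps was called (adjusted p = 0.146 and 0.106). The pseudogenes share sequence with other genes, so their values are uncertain. These r are among the highest over all tested genes that are not predicted genes, and libraries of 1 group share their treatment, so they are given as a description. Genes picked for likeness to Cyp7b1, which separated the groups, were prone to differ between them. The 4 calls are therefore no separate result.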

How the data were processed

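Liver poly(A) RNA of 6 limonin and 5 MCD libraries was sequenced. Per the labels' protocols, RNA needed an integrity number above 7.0, and a dUTP procedure marked the strand. Use of the strand in quantification is not stated. The submitters' processing notes list cutadapt 1.9, HISAT2 2.0.4 and StringTie 1.3.4d with a human genome build, yet the identifiers are mouse ones. The authors deposited 1 FPKM value for each gene in each library, per the file headers. Also deposited were the authors' fold change (a ratio of group means), the log2 of that ratio, and for each gene a p-value and a q-value, from a test that is not named. The 3333 genes the authors marked were exactly those at q under 0.05 and at least 1.5-fold.

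FPKM hold no counts, so limma 3.58.1 (R 4.3.3; trend, robust, two-sided) was run on log2(FPKM + 1), with Benjamini-Hochberg adjustment over the 10489 genes that reached 1 FPKM in 5 or more libraries. The pseudocount lowers the fold change of weakly expressed genes. The script was tested on simulated data. Depth was estimated from genes with 1 transcript (GENCODE M21, GRCm38) by taking the commonest product of FPKM and length as 1 fragment, and no counting intervals are given. Ratios were of FPKM + 1 for the tests and of FPKM where linear values are printed, compared over all splits into 6 and 5, and a ratio's interval holds the shifts not rejected at 0.05.

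Named were the 10 enzymes, up to 4 genes of smallest p per related list, the 4 genes most alike Cyp7a1 and Cyp7b1 with predicted genes left out (1 of them is not reported here), and genes on whose role a result turns. Acox2, Fgfr4, Alb and Apoa1 were added after their values were seen. The genes, lists and tests were chosen with earlier results of these data known. Alternatives were other filters, pseudocounts of 0.1 and 0.01, 4 other scalings, no trend, library weights, the replicate number as a block, libraries left out, and the authors' deposited calls.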

Additional observations from a re-analysis of the deposited data

Results flagged for a closer look

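In 70 groups of values, from 35 named genes in limonin and in MCD livers, 3 single libraries stood apart from the rest of their group. None of them concerned the 10 enzymes. Chance gives about 1 in 20 groups, so 3 of 70 is no more than chance would give. Cyp2c70 was at 29.05 FPKM in MCD 1, below the next MCD library at 47.9 FPKM. Sult2a7 was at 1.861 FPKM in MCD 4, above the next MCD library at 0.395 FPKM. Cyp4a10 was at 94.52 FPKM in limonin 2, below the next limonin library at 126 FPKM.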

How the results depend on the processing

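Cyp7b1 and Slc27a5 were called higher in all 25 alternatives, and Cyp7a1 in none. The number of enzymes called higher, 5 of 10, was 2 with no filter, with hepatocyte marker scaling and without MCD 4 and 5, and 3 with the replicate block and by the authors' deposited calls. The authors' calls also ask for a 1.5-fold change, and at a q under 0.05 alone the authors' deposited table holds 7 of the 10. Over single libraries left out it was 2 to 6. All genes called higher, 759, numbered 412 with no filter, 1470 after median-ratio scaling, 1813 after quantile normalization, 166 with hepatocyte marker scaling, 363 with the replicate block, 486 without MCD 4 and 5, 1347 without limonin 5 and 6 and 1168 in the authors' deposited table (328 to 1097 over single libraries left out). Those lower, 1957, numbered 900 at a filter of 5 FPKM, 1112 at equal summed FPKM, 3833 with hepatocyte marker scaling and 893 with the replicate block (1080 to 2134). The share of calls that were higher was 27.9%, against 48.1% after median-ratio scaling, 52.9% after quantile normalization, 49.6% at equal summed FPKM and 4.15% with hepatocyte marker scaling. Summed FPKM over all genes was 404100 to 462700 in limonin libraries and 464200 to 471600 in MCD libraries. The shares of all genes tested that were set beside each list hold for FPKM as deposited and change with the scaling.

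Calls in the related lists moved as follows. Other synthesis steps (5 higher, 0 lower) had 2 higher and 1 lower with no filter, 8 higher at equal summed FPKM, 2 higher and 2 lower with hepatocyte marker scaling, 3 higher with the replicate block, and 3 higher and 1 lower by the authors' deposited calls (2 to 7 higher and 0 to 1 lower over single libraries left out). Regulators (4 higher, 2 lower) had 2 higher and 0 lower with no filter, 1 lower after median-ratio scaling, quantile normalization, equal summed FPKM or the replicate block, 2 higher and 6 lower with hepatocyte marker scaling, 2 higher without MCD 4 and 5, and 0 lower by the authors' deposited calls (2 to 5 higher and 1 to 3 lower). Transporters (4 higher, 1 lower) had 1 higher and 0 lower with no filter or the replicate block, 2 higher and 2 lower with hepatocyte marker scaling, 2 lower with library weights and 2 higher without MCD 4 and 5 (2 to 4 higher and 1 to 2 lower). Sulfation and hydroxylation (3 higher, 1 lower) had 1 higher and 3 lower with no filter, 0 lower at 5 FPKM, 1 higher with hepatocyte marker scaling and 3 lower by the authors' deposited calls (1 to 4 higher and 1 lower).

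Directions turned for 5 genes and 2 ratios, none of them called on FPKM as deposited with all libraries; Baat was called under 4 other settings given above. With hepatocyte marker scaling the log2 fold change was -0.0736 for Cyp27a1, -0.00838 for Baat, -0.0836 for Nr1h4 and -0.170 for Tstd3 (-0.0228 to 0.120 over single libraries left out). Nr0b2 turned to 0.0844 after median-ratio scaling, 0.0320 after quantile normalization, 0.106 at equal summed FPKM, 0.0471 with library weights, 0.0220 with the replicate block, 0.0875 without limonin 5 and 6 and 0.0142 in the authors' deposited table (-0.110 to 0.117 over single libraries left out). The Cyp7b1 to Cyp7a1 difference turned to -0.0732 without limonin 5 and 6 and was 0.0385 to 0.586 over single libraries left out. The Cyp7b1 to Cyp8b1 difference turned to 0.0691 and 0.0800 at pseudocounts of 0.1 and 0.01, 0.108 without limonin 5 and 6 and 0.00561 with the replicate block, with -0.228 to 0.251 over single libraries left out. The differences for Cyp27a1 to Cyp7a1 (-0.506 to -0.00158) and Cyp27a1 to Cyp8b1 (-0.772 to -0.226) kept their sign there.

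Same-numbered libraries did not deviate together (r from -0.235 to 0.204 over 5 pairs), and 1 of 5 limonin libraries correlated best with its own number, so the numbers were not read as a pairing. With the block, over 5 pairs and without limonin 6, Akr1d1 (adjusted p = 0.0915) and Amacr (0.144) were not called, nor were Hnf4a, Abcc2, Slc27a2, Slc10a1, Cyp3a13, Slc51b, Dbil5, Cyp2a5 and Atp5pb-ps. The causes of these shifts were not tested. Depth limits the weakest genes most, and Cyp7b1 rests on 161 to 408 implied fragments.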

Other observations

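Of 18 listed other steps of bile acid synthesis, 2 fell below the filter on low values. Ch25h, which makes an oxysterol in interferon-stimulated macrophages, was at 0.134, 0.0378, 0.126, 0.151, 0.0792 and 0.0807 FPKM in limonin livers 1 to 6 and at 0.488, 0.526, 0.295, 0.553 and 0.403 FPKM in MCD livers 1 to 5. Every limonin value lay below every MCD value, a pattern found in 8.33% of the genes above the filter. In the fit with no filter the fold change was -0.40 ± 0.06 (SE, limma adjusted p = 0.0131). The ratio of the Ch25h means, limonin over MCD, was 0.224, which the pseudocount shrinks on the log2 scale at such low values. Cyp46a1, which makes the brain oxysterol on which Cyp39a1 acts, ranged from 0.515 to 1.14 FPKM in limonin livers and from 0.381 to 2.25 FPKM in MCD livers, and was not called in that fit (adjusted p = 0.573).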
